A study of Mus musculus with 86 samples.

Results

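The platelet-derived growth factor (PDGF) genes Pdgfa, Pdgfc, Pdgfra and Pdgfrb were followed cell by cell in the mouse kidney at 12.5 days post coitum (Theiler stage 20). These 4 genes, 2 ligands and 2 receptors, were taken by symbol from the 12360 genes of the deposited expression table, and all 4 are listed there. The 86 cells came from wild-type metanephroi of mixed background and both sexes, which were pooled and trypsinised before single cells were captured on a microfluidic chip (Fluidigm C1). They fall into 7 bud cells (Mal2 at an RPKM of at least 100), 46 Six2-detecting cells (Six2 at an RPKM of at least 1, outside the bud class) and 33 remaining cells. RPKM are reads scaled to gene length and to library depth. The labels describe 1 pool and name no cell type, so the cells are not replicates of a condition. Differences between classes are therefore descriptions, with no test and no p-value, and the SD is the spread over cells.

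PDGF ligands are secreted dimers, and their receptors are tyrosine kinases that pair when a ligand binds. PDGF-A and PDGF-C act mainly through the alpha receptor encoded by Pdgfra, while the beta receptor encoded by Pdgfrb is the main partner of PDGF-B and PDGF-D. PDGF-C is made with a CUB domain that a protease must remove before it can signal. In organs with an epithelium and a mesenchyme, PDGF ligands often come from the epithelium and the receptors from mesenchymal, stromal and mural cells. In the young kidney the ureteric bud branches among Six2-positive nephron progenitors, and Foxd1-positive stroma surrounds both.

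The boundary of the bud class was wide, and that of Six2 was narrower. Mal2, a tetraspan protein of polarised epithelium, had an RPKM of 1219 to 2699 in the bud cells and at most 3.41 in any other cell. Six2, a transcription factor of nephron progenitors, was at 1.50 or more in the cells that counted as detecting it and at 0.527 or less in all others. The Six2-detecting cell at 1.50, cell 42, had an estimated 0.317 M mapped reads (M for mega), one of the lowest depths. It was also detected in 3 of the 7 bud cells. Bud cells detected 8 to 11 of the 11 ureteric bud markers in the table, with a summed RPKM of 714 to 2230, and Ret, the receptor of the bud tip, was detected in 6 of 7. Six2-detecting cells had a median of 10 of 12 nephron progenitor markers, against 5 in the remaining cells. The remaining cells had a median of 12 of 15 stroma markers, but the class was mixed: 8 of its 33 cells detected Pax8, an early gene of induced nephrons, and the Six2-detecting cells had a median of 8.5 stroma markers. Of 10 endothelial markers 3 are in the table, and their summed median was 0, 0.156 and 0 in bud, Six2-detecting and remaining cells. The median cell detected 6488 genes in bud, 6256 in Six2-detecting and 6087 in remaining cells. The 5 cells with the fewest genes were 1 Six2-detecting and 4 remaining cells and include cell 29.

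Read depth was estimated from the steps between low RPKM values, since a gene with few reads can only take whole multiples of 1 read. It came to 0.306 to 6.18 M mapped reads per cell, with medians of 2.11 M in bud, 2.03 M in Six2-detecting and 1.97 M in remaining cells. At the median depth an RPKM of 1 stood for about 2.18 reads of Pdgfa, 10.2 of Pdgfc, 18.0 of Pdgfra and 10.9 of Pdgfrb. The gene lengths behind these figures were taken from each gene's own steps. For Pdgfa they gave 1084 bases and for Pdgfc 5081, where the annotation (GENCODE M21) has 2942 and 3521, so these figures rest on that choice. On it, a low level of Pdgfa was harder to see than a low level of the other members: in 7 cells a single read of Pdgfa was worth more than an RPKM of 1. A gene is called detected here at an RPKM of at least 1.

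**Figure D1:**
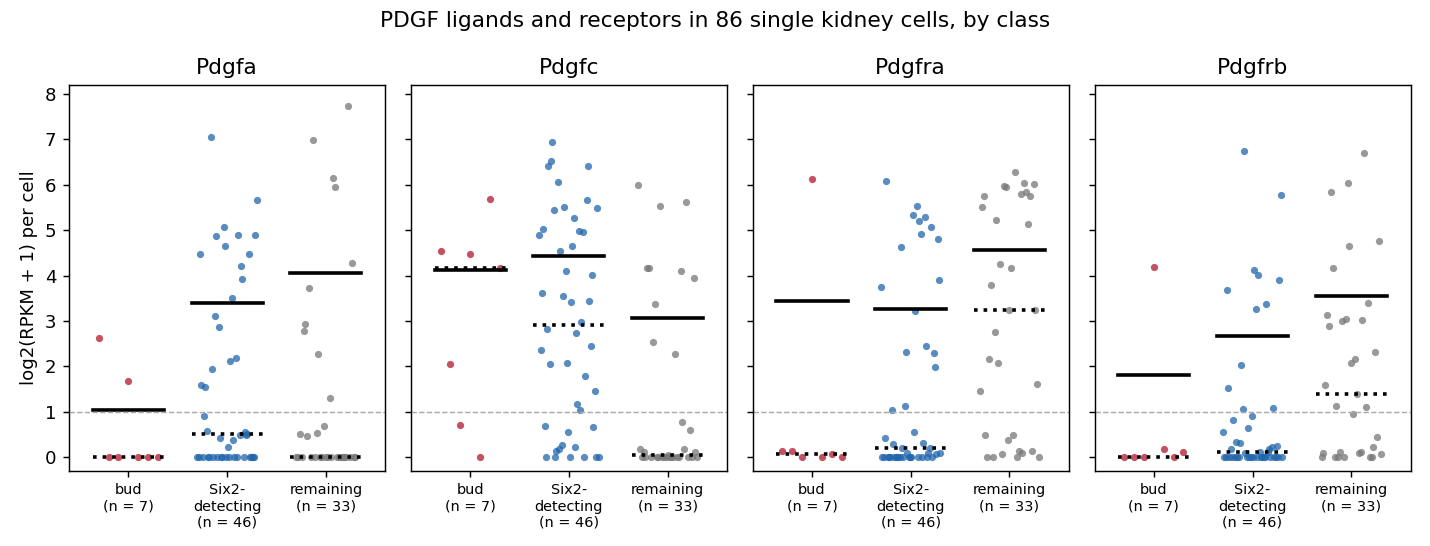
RPKM of the 4 PDGF genes per cell on a log2(RPKM + 1) scale (vertical axis) in bud, Six2-detecting and remaining cells; each point is 1 cell, the solid line is the mean RPKM, the dotted line the median RPKM and the dashed grey line an RPKM of 1. The highest Pdgfa value, 213, is in a remaining cell, the highest Pdgfc value, 121, in a Six2-detecting cell, and a single bud cell carries both receptors.

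Pdgfa was found in a minority of cells of every class and was low in bud cells. It lies on chromosome 5 (139452929 to 139470907, mm9, gene 18590) and encodes the A chain. Its RPKM ran from 0 over a median of 0 to 5.12 in bud cells, from 0 over 0.413 to 131 in Six2-detecting cells and from 0 over 0 to 213 in remaining cells. The classes overlapped, and a few cells carried the means. It was detected in 2 of 7 bud cells (28.6%, exact 95% interval 3.67 to 71.0%, counting error only), in 19 of 46 Six2-detecting cells (41.3%, 27.0 to 56.8%) and in 10 of 33 remaining cells (30.3%, 15.6 to 48.7%). Mean RPKM was 1.04 (SD 1.97) in bud, 9.55 (SD 21.7) in Six2-detecting and 15.7 (SD 44.1) in remaining cells. The log2 ratio of (mean RPKM + 1) was -3.04 for bud over remaining cells and -2.37 for bud over Six2-detecting cells. With the mean of log2(RPKM + 1) bud over remaining cells had -0.79, within 2-fold, and without the remaining cells that detect Pax8 the ratio was -1.65. For Six2-detecting over remaining cells it was -0.67. That sign turned with the averaging, to 0.28 when log2 values were averaged.

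Among the remaining cells the highest Pdgfa values belonged to cell 40 (213), cell 68 (125), cell 29 (69.5) and cell 73 (61.0). Cells 40, 29 and 73 detected Pax8, at 67.9, 171 and 2.37. Cell 40 also detected Wnt4 and Lhx1, a secreted Wnt and a transcription factor of induced nephrons. Cell 73 detected Lhx1 too (12.0), along with the stroma markers Foxd1 (13.7) and Col3a1 (60.1). Cell 68 detected no Pax8, but Foxd1, Cited1 and Pdgfra. Among Six2-detecting cells cell 79 stood highest at 131, and it had Pax8, Wnt4 and Lhx1 as well.

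Pdgfc was the most widely detected member, and it was higher in Six2-detecting and bud cells than in the remaining cells. It lies on chromosome 3 (80840338 to 81017953, mm9, gene 54635) and encodes the C chain. Its RPKM ran from 0 over a median of 16.9 to 50.9 in bud cells, from 0 over 6.47 to 121 in Six2-detecting cells and from 0 over 0.0395 to 63.2 in remaining cells. All 3 ranges overlapped from 0 upward, while the medians differed. It was detected in 5 of 7 bud cells (71.4%, 29.0 to 96.3%), in 33 of 46 Six2-detecting cells (71.7%, 56.5 to 84.0%) and in 10 of 33 remaining cells (30.3%, 15.6 to 48.7%). Mean RPKM was 16.5 (SD 18.0) in bud, 20.6 (SD 28.9) in Six2-detecting and 7.30 (SD 15.6) in remaining cells. The log2 ratio was 1.07 for bud over remaining cells, 1.38 for Six2-detecting over remaining cells and -0.31 for bud over Six2-detecting cells. Without the highest cell of each class the ratio of bud over remaining cells was 0.84. It was also within 2-fold with Six2 detected at an RPKM of 5 (0.81) and without the cells of few genes (0.93).

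These ratios were read against all genes whose mean RPKM reached 1 in either class. Of 11546 such genes 7.92% were more than 2-fold higher and 8.19% more than 2-fold lower in Six2-detecting than in remaining cells. For bud over remaining cells 13.3% of 11405 genes were higher and 23.8% lower by that measure, and for bud over Six2-detecting cells 11.2% of 11409 genes were higher and 22.6% lower. A 2-fold ratio was thus more common among genes in the comparisons of the 7 bud cells. Past 2-fold on this scale, Pdgfc was higher and Pdgfa, Pdgfra and Pdgfrb were lower in bud than in remaining cells, with the limits given for Pdgfa and Pdgfc. In Six2-detecting cells Pdgfc was higher and Pdgfra lower past 2-fold.

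Pdgfra was below an RPKM of 1 in most bud and Six2-detecting cells and above it in most of the remaining cells. It lies on chromosome 5 (75548316 to 75594229, mm9, gene 18595) and encodes the alpha receptor. Its RPKM ran from 0 over a median of 0.0528 to 68.7 in bud cells, from 0 over 0.146 to 66.5 in Six2-detecting cells and from 0 over 8.39 to 76.9 in remaining cells. The upper ends nearly coincided, and the number of cells with the gene differed. It was detected in 1 of 7 bud cells (14.3%, 0.361 to 57.9%), in 18 of 46 Six2-detecting cells (39.1%, 25.1 to 54.6%) and in 22 of 33 remaining cells (66.7%, 48.2 to 82.0%). Mean RPKM was 9.84 (SD 25.9) in bud, 8.53 (SD 15.7) in Six2-detecting and 22.5 (SD 26.3) in remaining cells. The log2 ratio was -1.30 for Six2-detecting over remaining cells, and -1.40 without the highest cell of each class. Counting any value above 0, Pdgfra was seen in 57.1% of bud, 60.9% of Six2-detecting and 87.9% of remaining cells. For bud over Six2-detecting cells its ratio was 0.19.

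The bud mean of Pdgfra rested on cell 20 alone, which had an RPKM of 68.7 where the other 6 bud cells had at most 0.101. Cell 20 also had Pdgfrb at 17.3, where the other bud cells had at most 0.134. It detected 10 of 11 bud markers and 10 of 15 stroma markers, Foxd1 and Col3a1 among them, and its 6488 genes lay at the median of the bud class. Capture sites were inspected under the microscope for single cells, per the labels' protocols. No doublet caller was run, and whether 2 cells shared that chamber was not tested. With cell 20 the log2 ratio of bud over remaining cells was -1.12 for Pdgfra and -1.74 for Pdgfrb. Without it the ratios were -4.50 and -3.50, and that of Pdgfra for bud over Six2-detecting cells was -3.19.

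Pdgfrb was also detected in the largest share of cells among the remaining cells. It lies on chromosome 18 (61204804 to 61244721, mm9, gene 18596) and encodes the beta receptor, known from pericytes and mesangial cells. Its RPKM ran from 0 over a median of 0 to 17.3 in bud cells, from 0 over 0.0801 to 106 in Six2-detecting cells and from 0 over 1.61 to 102 in remaining cells. Most values were low, with 1 Six2-detecting and 1 remaining cell above 100. It was detected in 1 of 7 bud cells (14.3%, 0.361 to 57.9%), in 12 of 46 Six2-detecting cells (26.1%, 14.3 to 41.1%) and in 19 of 33 remaining cells (57.6%, 39.2 to 74.5%). Mean RPKM was 2.50 (SD 6.54) in bud, 5.35 (SD 17.5) in Six2-detecting and 10.7 (SD 22.3) in remaining cells. The log2 ratio of Six2-detecting over remaining cells was -0.88, within 2-fold, and -1.11 without the highest cell of each class.

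The 2 cells with the most Pdgfrb were cell 4, a Six2-detecting cell at 106, and cell 30, a remaining cell at 102. Both had Rgs5, a regulator of G-protein signalling typical of pericytes, at 719 and 227, both detected Col3a1, and neither detected Foxd1. Their Pdgfra was 0.147 and 0.0610, an estimated 2 reads and 1 read, so these 2 cells had the beta receptor with the alpha receptor below the detection limit. Cell 30 detected 7 of 9 mural markers and cell 4 detected 3. Other lineages were present too: cell 30 detected 9 of 12 nephron progenitor and 2 of 3 endothelial markers, and cell 4 detected 7 and 0.

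RPKM is scaled to length, but levels compare only roughly between these genes. The lengths that the steps gave for Pdgfa and Pdgfc differ from the annotated ones. By those steps an RPKM of 1 also stood for fewer reads of Pdgfa than of the other members. Numbers of detecting cells are thus not strictly comparable either. In the cells that detected each gene, the median RPKM was 14.2 for Pdgfa, 16.9 for Pdgfc, 27.1 for Pdgfra and 8.21 for Pdgfrb. By the number of detecting cells the order was Pdgfc (48 cells), Pdgfra (41), Pdgfrb (32) and Pdgfa (31), and the last pair differed by a single cell. Of the other family genes in the table, Pdgfd, the D chain, was detected in 0 of 7 bud cells, which allows a share of up to 42.9% (3 counts of the total; the exact 95% bound is 41.0%), in 4 of 46 Six2-detecting cells and in 6 of 33 remaining cells. Pdgfrl, a receptor-like gene without a kinase, was detected in 2 of 7, 15 of 46 and 5 of 33 cells. Pdgfb was not analysed here.

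**Figure D2:**
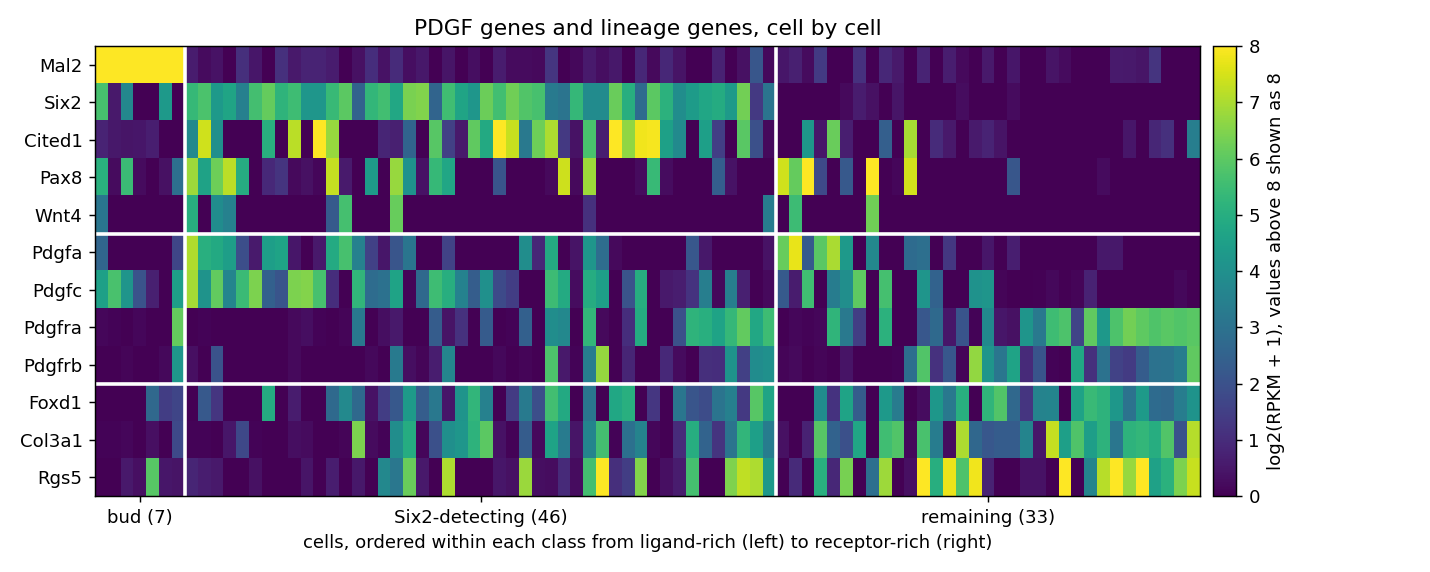
log2(RPKM + 1) of 3 blocks of genes (rows: class and nephron genes, PDGF genes, stroma and mural genes) in each of the 86 cells (columns), which are ordered within a class from ligand-rich to receptor-rich by the PDGF genes themselves. Pax8 is frequent at the ligand-rich end of the remaining cells, and Foxd1, Col3a1 and Rgs5 are frequent at the receptor-rich end.

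Ligand cells and receptor cells were then counted. A ligand cell detects Pdgfa or Pdgfc, and a receptor cell detects Pdgfra or Pdgfrb. Of the 86 cells 28 had a ligand and no receptor (32.6%, 22.8 to 43.5%), 22 had a receptor and no ligand (25.6%, 16.8 to 36.1%), 28 had both and 8 had neither. Among bud cells the 4 counts were 4, 0, 1 and 2, and the cell with both was cell 20. The 0 of 7 allows a share of up to 42.9% by the rule of 3 counts, with an exact 95% bound of 41.0%. Among Six2-detecting cells they were 19, 5, 17 and 5, and among remaining cells 5, 17, 10 and 1. Cells with a receptor alone thus made up 10.9% of Six2-detecting cells (3.62 to 23.6%) and 51.5% of remaining cells (33.5 to 69.2%). Cells with a ligand alone made up 41.3% (27.0 to 56.8%) and 15.2% (5.11 to 31.9%).

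**Figure D3:**
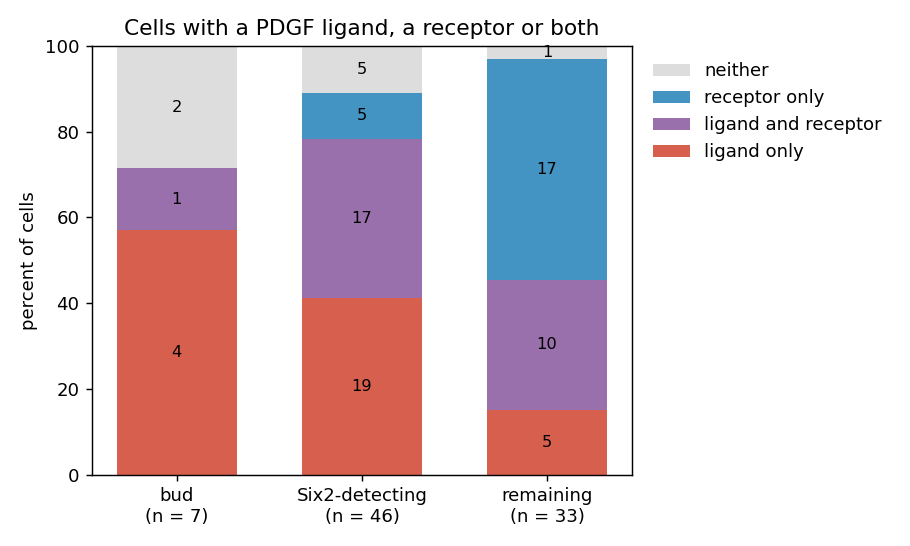
Percent of bud, Six2-detecting and remaining cells (vertical axis) that detect a PDGF ligand (Pdgfa or Pdgfc) alone, a ligand and a receptor (Pdgfra or Pdgfrb), a receptor alone, or neither; the numbers in the bars are cells. Receptor-only cells are 17 of 33 remaining cells and 5 of 46 Six2-detecting cells, and no bud cell is of this kind.

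The 28 ligand-only and 22 receptor-only cells differed in lineage genes that no class rule had used. Foxd1 was detected in 10 of 28 ligand-only cells and in 21 of 22 receptor-only cells. Col1a1, a fibrillar collagen, was detected in 6 of 28 and in 21 of 22, and its mean RPKM was 3.33 (SD 7.49) and 35.9 (SD 21.9). Pax8 went the other way, with 16 of 28 ligand-only and 2 of 22 receptor-only cells, where it averaged 55.0 (SD 99.8) and 0.358 (SD 1.14). The 28 cells with both lay between them for Foxd1 (22 cells) and Pax8 (9 cells). Col1a1 was detected in 25 of these 28 cells, a share near that of the receptor-only cells. Its mean RPKM of 11.9 (SD 11.3) lay between the 2 groups. Median depth was similar, at 2.12 M reads in ligand-only, 2.02 M in receptor-only and 1.84 M in cells with both. The median number of genes detected was 6032, 6091 and 6476.5 in these, and 5305.5 in the 8 cells with neither.

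All 15 stroma markers were detected in a larger share of the 50 cells with a receptor than of the 36 cells without one. The same count over all genes was not made, so this count has no background. Among the 36 are 4 bud cells with a ligand alone and 2 bud cells with neither. The difference was wide for Nfia, a transcription factor, which was detected in 50 of 50 cells with a receptor and in 7 of 36 cells without, where it averaged 28.1 (SD 19.2) and 5.21 (SD 14.2). Col3a1 was detected in 45 of 50 against 5 of 36 cells, and Ebf1, a transcription factor, in 32 of 50 against 3 of 36. Meis1 differed little in detection, with 50 of 50 against 33 of 36, but its mean RPKM was 176 (SD 105) against 61.5 (SD 60.8). Genes per cell had a median of 6315 in cells with a receptor and 5951.5 in cells without.

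The pairs of genes within a cell were uneven. Pdgfra was detected in 9 of 31 cells with Pdgfa (29.0%) and in 32 of 55 cells without Pdgfa (58.2%). With Pdgfc the contrast was smaller, with Pdgfra in 20 of 48 cells that detected Pdgfc (41.7%) and in 21 of 38 that did not (55.3%). Among Six2-detecting cells this was 12 of 33 (36.4%) against 6 of 13 (46.2%). Among remaining cells the direction turned, with 7 of 10 (70.0%) against 15 of 23 (65.2%). Pdgfrb was detected in 10 of 31 cells with Pdgfa (32.3%) and in 22 of 55 without (40.0%). Among Six2-detecting cells that direction turned as well, with 6 of 19 against 6 of 27. With Pdgfc the contrast for Pdgfrb was larger, with 13 of 48 cells (27.1%) against 19 of 38 without Pdgfc (50.0%). This was 8 of 33 against 4 of 13 among Six2-detecting cells and 4 of 10 against 15 of 23 among remaining cells. Both receptors were found together in 23 cells, which are 56.1% of the Pdgfra cells and 71.9% of the Pdgfrb cells. Pdgfrb was detected in 9 of 45 cells without Pdgfra (20.0%). Both ligands were found together in 23 cells, 74.2% of the Pdgfa cells and 47.9% of the Pdgfc cells. At an RPKM of at least 5 the number of cells with Pdgfa and Pdgfra was 5, in place of 9.

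Since the remaining class mixed stromal and induced cells, the 79 cells outside the bud class were split by Pax8, a split chosen for the whole set after the values were seen. Pdgfa was higher and Pdgfra lower in the Pax8-detecting cells. Pdgfa was detected in 19 of 25 Pax8-detecting cells and in 10 of 54 others. Its median RPKM was 7.68 in Pax8-detecting cells (range 0 to 213) and 0 in the others (0 to 125). The mean was 27.5 (SD 48.7) against 5.05 (SD 18.7), a log2 ratio of 2.23, and 1.15 without the 3 highest Pax8-detecting cells. The 2 sides overlapped, since 5 Pax8-detecting cells had a Pdgfa of 0 and the others reached 125. Only the Pax8-detecting cells 40 (213) and 79 (131) lay above that.

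Pdgfra was detected in 5 of 25 Pax8-detecting cells and in 35 of 54 others. Its median RPKM was 0 in Pax8-detecting cells (range 0 to 38.4) and 4.21 in the others (0 to 76.9). It averaged 3.53 (SD 9.05) against 19.4 (SD 24.1), which gives a log2 ratio of -2.17. Pdgfrb was detected in 7 of 25 against 24 of 54, with a log2 ratio of -1.56. Averaging log2 values instead gave -0.63. Pdgfc differed less, with 17 of 25 against 26 of 54 cells and a log2 ratio of 0.58. By this measure 5.36% of 11524 genes were more than 2-fold higher and 10.8% more than 2-fold lower in Pax8-detecting cells. Stroma markers moved with the split, since 8 of 15 were more than 2-fold lower in Pax8-detecting cells and none was higher, and their part in the receptor difference was not tested. Median depth was 1.97 M reads in Pax8-detecting cells and 2.04 M in the others.

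**Figure D4:**
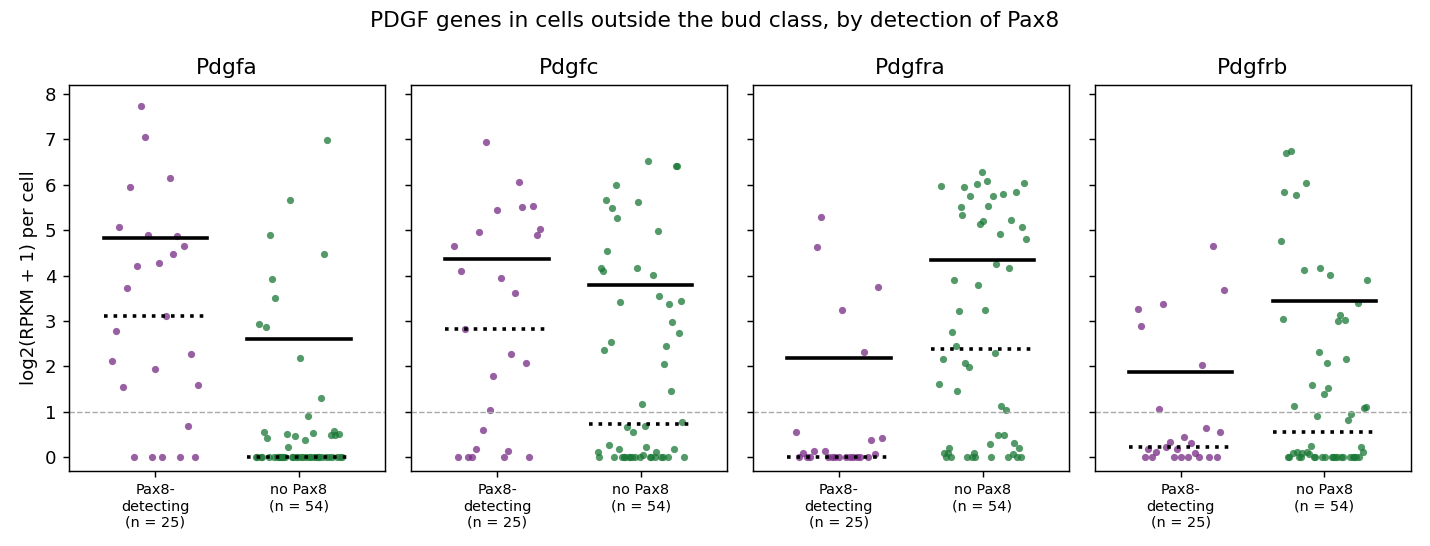
RPKM of the 4 PDGF genes per cell on a log2(RPKM + 1) scale (vertical axis) in the 25 Pax8-detecting and 54 other cells outside the bud class; each point is 1 cell, the solid line is the mean RPKM, the dotted line the median RPKM and the dashed grey line an RPKM of 1. Pdgfa is detected in 19 of 25 Pax8-detecting cells and 10 of 54 others, and Pdgfra in 5 and 35.

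The Pdgfa and Pdgfra differences were in the same direction in both classes outside the bud. Among Six2-detecting cells Pdgfa was detected in 12 of 17 cells with Pax8 and in 7 of 29 without, with a log2 ratio of 1.70. Among remaining cells it was detected in 7 of 8 cells with Pax8 and in 3 of 25 without, with a log2 ratio of 2.94. Pdgfra was detected in 4 of 17 against 14 of 29 Six2-detecting cells and in 1 of 8 against 21 of 25 remaining cells. Pdgfrb was detected in 5 of 17 against 7 of 29 Six2-detecting cells and in 2 of 8 against 17 of 25 remaining cells. Of the 10 cells with Wnt4, 9 detected Pdgfa, against 20 of the 69 without. Pdgfra was detected in 2 of 10 cells with Wnt4 and in 38 of 69 without. Its log2 ratio was -0.79, within 2-fold, but -1.15 when log2 values were averaged. Pdgfrb was detected in 4 of 10 against 27 of 69 cells.

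Foxd1 and Col3a1 marked the cells with Pdgfra. Among Six2-detecting cells Pdgfra was detected in 17 of 31 cells with Foxd1 and in 1 of 15 without, and its mean RPKM was 11.7 (SD 17.7) against 2.02 (SD 7.57). Among remaining cells it was detected in 20 of 25 with Foxd1 and in 2 of 8 without. For Pdgfrb, shares and means by Foxd1 went opposite ways. It was detected in 16 of 25 against 3 of 8 remaining cells, with means of 7.55 (SD 14.0) and 20.6 (SD 38.2). Among Six2-detecting cells it was detected in 10 of 31 against 2 of 15, with means of 4.09 (SD 10.4) and 7.95 (SD 27.3). These log2 ratios of Pdgfrb were -1.34 and -0.82, and averaging log2 values gave -0.02 and 0.24. Over both classes 38 of 49 cells with Col3a1 detected Pdgfra, against 2 of 30 without, and 27 of 49 detected Pdgfrb, against 4 of 30. Pdgfc ran against Foxd1 in Six2-detecting cells: its mean RPKM was 11.8 (SD 16.9) in the 31 cells with Foxd1 and 38.8 (SD 39.3) in the 15 without, a log2 ratio of -1.64. Six2-detecting cells were also split by Cited1, a marker of uninduced progenitors. The log2 ratio with over without Cited1 was -0.05 for Pdgfc (detected in 19 of 29 against 14 of 17 cells) and 0.20 for Pdgfra (13 against 5 cells). It was 0.50 for Pdgfa (10 against 9 cells) and -1.11 for Pdgfrb (8 against 4 cells), where averaging log2 values gave -0.20 and -0.17.

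Rgs5 also went with the receptors. Among remaining cells the mean RPKM of Pdgfra was 32.6 (SD 28.8) in 19 cells with Rgs5 and 8.85 (SD 14.5) in 14 without. That of Pdgfrb was 14.1 (SD 28.2) against 6.13 (SD 9.34). For Pdgfrb the log2 ratio was 1.08, but 0.53, within 2-fold, when log2 values were averaged. It was detected in 13 of 19 against 6 of 14 cells, and its median in the detecting cells was 7.03 against 12.4. The other mural markers were mixed. Of 9 mural genes listed, Rgs5 included, 4 were more than 2-fold lower in Six2-detecting than in remaining cells, against 8.19% of all genes. Rgs5 itself was 1 of these 4, with a log2 ratio of -1.82. None was higher past 2-fold, but Des, a muscle intermediate filament, was detected in 32 of 46 against 17 of 33 cells (log2 ratio 0.85). Mcam, an adhesion molecule, was detected in 10 of 46 against 1 of 33 (0.80). The summed RPKM of 9 mural markers ran from 0.277 to 60.2 in bud, from 0.218 to 735 in Six2-detecting and from 0.570 to 1209 in remaining cells. These sums include Rgs5, which was 719 in cell 4, the cell with the sum of 735, and 60.2 in bud cell 3.

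Other genes of the pathway were compared between Six2-detecting and remaining cells, where 7.92% of all genes were higher and 8.19% lower past 2-fold. Of 22 adaptors and enzymes that bind PDGF receptors or act just below them, none was past 2-fold in either direction, and the median log2 ratio was 0.11, where all genes had 0.02. Of 10 attenuators 1 was lower, Spry4, an inhibitor of receptor kinase signalling, with a mean RPKM of 10.3 (SD 16.1) in Six2-detecting and 24.9 (SD 36.3) in remaining cells, a log2 ratio of -1.19, and 1 of 10 is near the share over all genes. Spry4 was detected in 25 of 46 and 18 of 33 cells, and averaging log2 values gave -0.68, within 2-fold. Of 4 receptor partners 2 were lower: Lrp1, an endocytic receptor that associates with the beta receptor, at -1.61, and Cspg4, a pericyte proteoglycan, at -1.64. Cspg4 was detected in 4 of 46 and 8 of 33 cells. With averaged log2 values Cspg4 had -0.68, within 2-fold, and Lrp1 had -1.19. None of 4 ligand-processing genes was past 2-fold. Plat, the plasminogen activator that can cleave PDGF-C, had a mean RPKM of 18.3 (SD 20.9) in Six2-detecting and 26.9 (SD 33.7) in remaining cells.

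In bud over remaining cells 13.3% of all genes were higher and 23.8% lower past 2-fold. Of 23 adaptors and enzymes 1 was higher and 6 were lower, the second count near its share over all genes, with a median log2 ratio of -0.30, where all genes had -0.12. The higher one was Vav3, a guanine nucleotide exchange factor, detected in 5 of 7 bud and 3 of 33 remaining cells, with a log2 ratio of 3.23. Stat3 (-2.42) and Pik3r1 (-2.05), a transcription factor and the regulatory subunit of PI3-kinase, were lowest. Of 10 attenuators Ptprj, a receptor phosphatase (2.34), and Dusp6, an ERK phosphatase (2.10), were higher, 2 of 10 against 13.3% of all genes. Dusp6 had a mean RPKM of 202 (SD 81.6) in bud and 46.2 (SD 44.8) in remaining cells. Of 4 ligand-processing genes 1 was higher and 1 lower. Pcsk7, the higher one, was detected in 2 of 7 bud and 6 of 33 remaining cells, a log2 ratio of 1.04, and 0.81 when log2 values were averaged. Plat, the lower one, was detected in 1 of 7 bud and 22 of 33 remaining cells, a log2 ratio of -1.34. Kitl, the ligand of the related receptor kinase Kit, was detected in 7 of 7 bud and 8 of 33 remaining cells, and averaged 86.6 (SD 73.3) against 3.04 (SD 6.49).

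Genes with a pattern like each member were ranked by the Spearman correlation of RPKM over the 86 cells, among 10651 genes detected in at least 10 cells. These values describe cells of 1 pool that share library chemistry and differ in depth, and many are ties at 0. Among the 5 nearest to Pdgfra were Dnm3os (correlation 0.73), Lgals1 (0.68), Col1a1 (0.66) and Anxa2 (0.66), and outside the bud class these had 0.72, 0.67, 0.65 and 0.64. Dnm3os is transcribed antisense within Dnm3, and reads of the 2 genes cannot be told apart without strand. The 5 nearest to Pdgfrb were Maged2 (0.56), Aldh1a2 (0.54), Hic1 (0.54), Ldb2 (0.53) and Cald1 (0.51). The ligands had weaker likeness. For Pdgfa they were Hs3st6 (0.50), Cdh4 (0.48), Pax8 (0.47), Wnt4 (0.47) and Zfp207 (0.46), and for Pdgfc Ddr1 (0.48), Col2a1 (0.47), Mybpc1 (0.46), Ndrg2 (0.43) and Pgd (0.43). Between members the correlation was 0.46 for Pdgfra with Pdgfrb, 0.19 for Pdgfa with Pdgfc and -0.29 for Pdgfa with Pdgfra.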

How the data were processed

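RNA of 86 single cells was measured, with total RNA reverse transcribed by the SMARTer kit and Nextera XT libraries read on an Illumina HiSeq2500, per the labels' protocols. RPKM values were computed and deposited by the authors, and they were used on the linear scale. TopHat 1.4.1, DESeq and build mm9 are named, without a stated role, per the submitters' processing notes; the counter and annotation are not given in the sources used here. Per the file headers a column of the table counts for each gene the cells above an RPKM of 3, and a recount matched for all 12360 genes. A further deposited table, which lists none of the 4 genes, was not used.

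Classes, detection (RPKM of at least 1), log2 ratios of (mean RPKM + 1) and exact Clopper-Pearson intervals were computed with Python 3.11.15, numpy 2.4.6, pandas 2.3.3 and scipy 1.17.1. The members and lists were chosen with earlier results of these data known. Lists were named by up to 2 highest and 2 lowest ratios, with examples taken from these, and like genes by the 5 highest Spearman correlations, of which 1 is not reported here. The split of all cells outside the bud class, and of remaining cells, by Pax8, and those by Wnt4 and Col3a1, were added after the values were seen, as were Ret, Col1a1, Nfia, Ebf1 and Meis1 as examples. One read's worth per cell came from RPKM times annotated exon length (GENCODE M21, lengths only): in the median cell 44.8% of values under 5.5 reads lay within 0.1 of a whole read, where even spacing gives 20%. The reads behind the 4 members used lengths fitted to their own steps, which for Pdgfa and Pdgfc differ from the annotated lengths. Intervals cover counting error only. The ratios and the depth estimate were tested on simulated data. Alternatives were other pseudocounts, averages, thresholds, cell filters and scalings.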

Additional observations from a re-analysis of the deposited data

How the results depend on the processing

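No paired analysis was possible because all cells come from 1 pool and no group repeats. Under the alternatives 101 log2 ratios of the members lay within 1.5-fold of the value first given and 27 did not, and some calls depended on the setting. Pdgfra for bud over Six2-detecting cells, 0.19 as first given, passed 2-fold in both directions. The 2-fold call of Pdgfc for bud over remaining cells was lost with Six2 at an RPKM of 5 (0.81), without cells of few genes (0.93) and without the highest cells (0.84), and that of Pdgfa with averaged log2 values. With the mean of log2 values, bud over remaining cells had -0.79 for Pdgfa, 1.77 for Pdgfc and -2.10 for Pdgfra, bud over Six2-detecting cells had -1.07 for Pdgfa and -0.63 for Pdgfra, Six2-detecting over remaining cells had 0.28 for Pdgfa, and Pax8-detecting over other cells had -0.63 for Pdgfrb. A pseudocount of 0.1 gave Pdgfa -3.79 for bud over remaining and -3.08 for bud over Six2-detecting cells. Without remaining cells that detect Pax8, chosen after seeing the data, Pdgfa had -1.65 for bud and 0.72 for Six2-detecting over remaining cells. Without Six2-detecting cells that detect Foxd1, Six2-detecting over remaining cells had 2.26 for Pdgfc and -2.96 for Pdgfra, and bud over Six2-detecting cells had -1.19 and 1.84. Without cell 20, chosen after seeing the data, Pdgfra had -4.50 for bud over remaining and -3.19 for bud over Six2-detecting cells, and Pdgfrb had -3.50 and -2.62. Without the highest cell of each class, also chosen then, these were -4.39, -2.98, -3.10 and -1.99. Without the 3 highest Pax8-detecting cells, the ratio over other cells was 1.15 for Pdgfa, -0.11 for Pdgfc, -3.65 for Pdgfra and -2.45 for Pdgfrb. At a detection limit of 5, 5 cells had Pdgfa with Pdgfra, 5 Pdgfa with Pdgfrb and 12 Pdgfc with Pdgfra. Of the shares of detecting cells 43 stayed within and 9 left the interval of the share at an RPKM of 1, all with another detection limit. Apart from fewer cells in some settings, the cause of these shifts was not tested. Depth limits Pdgfa most, since 1 read can be worth an RPKM of up to 3.01 in the shallowest cell.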
